A study of Mus musculus with 6 samples.

Results

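The lymphoid priming genes followed here were 10 of the 32285 genes in the expression matrices: Dntt, Satb1, Notch1, Il7r, Rag1, Rag2, Ccr9, Ly6d, Blnk and Il12a. They were matched by symbol, each symbol occurred once, and all 10 were found. All but Il12a are switched on as multipotent progenitors turn towards the lymphoid lineages, and Il12a encodes a subunit of the cytokine IL12.

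Bone marrow was taken from female C57BL/6J mice carrying CD45.1, aged 8 to 12 weeks and given no conditioning. The AML group had received 1000000 cells of C1498, a murine acute myeloid leukemia line that carries CD45.2, and the control group had received PBS. All were sacrificed at day 21. Host hematopoietic stem and progenitor cells were sorted as CD45.1+ Lin- cKit+ Sca1+ (LSK) and run as 6 droplet single-cell libraries, 3 PBS and 3 AML. Leukemia in this model comes from 1 transplanted cell line. Nothing in the labels says whether a library came from 1 mouse or several, so p-values measure the spread between these libraries.

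The authors' cell table lists 16822 cells, from 693 in AML replicate 1 to 6838 in PBS replicate 1, and the table given here holds 0 cells of AML replicate 2. This leaves AML replicates 1 and 3 for comparison with the 3 PBS libraries. Summed UMIs (unique molecular identifiers, one per captured transcript) ranged from 1945659 in AML replicate 1 to 32123508 in PBS replicate 1. Median UMIs per cell ranged from 2393 in AML replicate 1 to 9586 in PBS replicate 2. AML replicate 1 is thus much the shallowest library. Any 2 libraries shared 0 to 12 cell barcodes. Each cell has a class in the table (HSC, MPP2, MPP3 or MPP4), set by the authors from module scores of published signatures, and a cluster number from 0 to 8. Clusters 6, 7 and 8 carried markers of other cell types. Plasma cell markers summed to 518428 CPM (UMIs scaled to a library total of 1000000) in cluster 6, erythroid markers to 11997 CPM in cluster 7, and T and NK cell markers to 3733 CPM in cluster 8, against 141 to 247 CPM for the last list in clusters 0 to 5. Markers of LSK cells summed to 636, 135 and 473 CPM in clusters 6, 7 and 8, against 353 to 932 CPM in clusters 0 to 5. Only cluster 7 was thus below the other clusters on that list. Of the 177 cells of cluster 6, 97.2% carry the class MPP3.

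MPP4 cells are the multipotent progenitors with the strongest lymphoid bias, and some of them begin to transcribe lymphoid genes before any commitment. Dntt, Rag1 and Rag2 serve V(D)J recombination: RAG1 and RAG2 together cut the antigen receptor genes, and DNTT (terminal deoxynucleotidyl transferase) adds untemplated bases at the joints. Notch1, Il7r and Ccr9 encode receptors, for Notch ligands that direct T cell fate, for the cytokine IL7 and for the chemokine that draws progenitors to the thymus. Satb1 encodes a chromatin organizer, Ly6d a surface protein that marks progenitors turning to the B lineage, and Blnk an adaptor of pre-B cell receptor signaling.

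Promoter sequences from RefSeq on GRCm38.p6, from 250 bases before to 50 after each gene's start, were present for 9 of the 10 genes, and Ly6d had no entry. The E protein motif CAGGTG, searched on both strands, was found in 6 of their 14 promoters, belonging to 5 genes, and in 20.2% of all 32851 promoters. The Ikaros core TGGGAA was found in 5 of the 14 (3 genes, 25.6% of all promoters), the Runx core TGTGGT in 3 (3 genes, 16.8%) and the PU.1 motif GAGGAAGT in 1 (3.20%). The Foxo motif GTAAACA and the Ebf palindrome were in none of these windows, and in 3.65% and 0.904% of all promoters. The 150 bases before the start are shown for 3 of the genes with an E protein motif and for Dntt, the gene with the most UMIs of the 10, with every matched motif in capitals. No matches overlapped.
Rag1, chr2:101649533-101649682, minus strand: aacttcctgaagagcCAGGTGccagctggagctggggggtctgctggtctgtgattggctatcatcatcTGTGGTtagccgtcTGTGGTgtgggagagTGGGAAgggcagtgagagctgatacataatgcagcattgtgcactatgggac
Il12a, chr3:68690494-68690643, plus strand: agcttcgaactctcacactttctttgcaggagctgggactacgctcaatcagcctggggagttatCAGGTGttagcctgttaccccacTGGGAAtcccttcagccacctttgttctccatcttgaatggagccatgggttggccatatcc
Ccr9, chr9:123767061-123767210, plus strand: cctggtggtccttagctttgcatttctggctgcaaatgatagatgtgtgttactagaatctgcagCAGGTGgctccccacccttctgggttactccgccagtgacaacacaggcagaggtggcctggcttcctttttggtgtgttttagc
Dntt, chr19:41029125-41029274, plus strand: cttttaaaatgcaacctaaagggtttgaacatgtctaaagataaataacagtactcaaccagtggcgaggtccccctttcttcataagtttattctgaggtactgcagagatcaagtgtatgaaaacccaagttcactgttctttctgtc
The CAGGTG match begins 135 bases before the start of Rag1 and 85 bases before that of both Il12a and Ccr9. The Dntt window held none of the motifs.

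The genes lie on GRCm38 at chr19:41029275-41059525 (Dntt), chr17:51736187-51833290 (Satb1), chr2:26457903-26516663 (Notch1), chr15:9505788-9530176 (Il7r), chr2:101638282-101649501 (Rag1), chr2:101624718-101632529 (Rag2), chr9:123678439-123784330 (Ccr9), chr15:74762056-74763620 (Ly6d), chr19:40928927-40994535 (Blnk) and chr3:68690644-68698547 (Il12a), by GENCODE vM21. Rag1 and Rag2 are neighbours on chromosome 2, on opposite strands.

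Of the 10 genes, 9 had their highest mean level in MPP4 cells, and Ly6d had its highest in MPP3 cells. These levels are a description with no test, since the class scores and the clusters may rest on these same genes. Dntt stood at 467 ± 62.9 CPM (SD over 5 libraries) in MPP4, 108 ± 29.6 CPM in MPP2, 41.6 ± 20.5 CPM in MPP3 and 15.6 ± 3.29 CPM in HSC, and no library of MPP4 came as low as any library of another class. Its mean in MPP4 was 29.8-fold that in HSC. The levels in MPP2 and MPP3 did not overlap either, at 73.0 to 154 CPM and 20.4 to 69.8 CPM.

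Il12a stood at 321 ± 46.7 CPM in MPP4, 99.1 ± 21.2 CPM in MPP2, 69.2 ± 29.5 CPM in MPP3 and 62.7 ± 20.4 CPM in HSC. Satb1 stood at 171 ± 37.4 CPM in MPP4, 61.1 ± 25.3 CPM in MPP2, 60.3 ± 21.1 CPM in MPP3 and 35.5 ± 13.7 CPM in HSC. For both, MPP4 was set apart from the other 3 classes and those 3 overlapped one another. Notch1 reached 29.4 ± 11.2 CPM in MPP4 and 9.91 to 11.6 CPM in the other classes, the flattest pattern of the 10 by the ratio of MPP4 to HSC (2.97-fold).

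Il7r stood at 34.6 ± 15.2 CPM in MPP4, 9.0 ± 3.98 CPM in MPP2 and 8.07 ± 5.97 CPM in MPP3, and in HSC 16 UMIs were counted in all. Rag2 stood at 9.99 ± 2.12 CPM in MPP4 and 4.40 ± 3.13 CPM in MPP2, with 2 UMIs in HSC. Rag1, its partner, gave 60 UMIs in 52 of 16822 cells, 48 of them in MPP4. Ccr9 gave 209 UMIs in 145 cells, 156 of them in MPP4, where it stood at 4.44 ± 3.35 CPM with 0 UMIs in AML replicate 1. Blnk was about level between MPP4 (15.0 ± 3.92 CPM) and MPP3 (14.4 ± 13.1 CPM), and MPP4 was highest in 4 of 5 libraries. At the depth of these libraries Rag1 and Ccr9 rest on few UMIs.

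**Figure D1:**
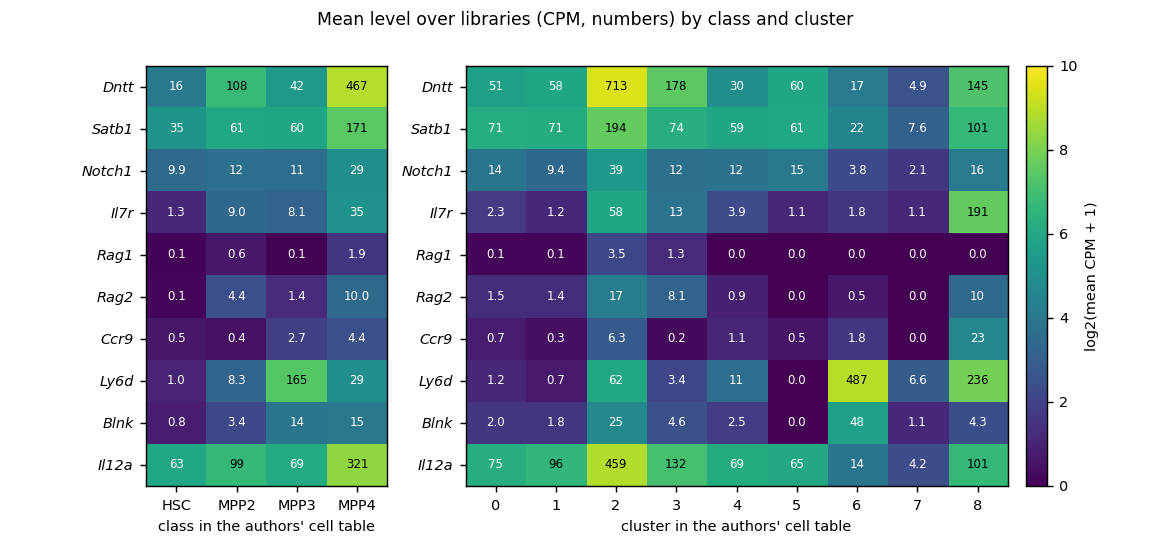
Mean CPM over libraries (printed in each square, colour on a log2 scale) of the 10 genes, by class on the left and by cluster on the right, from library sums of at least 20 cells. Dntt, Satb1, Notch1, Rag1, Rag2 and Il12a peak in cluster 2, Il7r and Ccr9 in cluster 8, and Ly6d and Blnk in cluster 6.

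Inside the MPP4 class Dntt, Il7r and Blnk were concentrated in cluster 2, which held 46.4% of MPP4 cells (3000 of 6462). In these cells Dntt stood at 850 ± 178 CPM, against 172 ± 33.0 CPM in the MPP4 cells of cluster 0 and 114 ± 15.8 CPM in those of cluster 1. Il7r stood at 70.5 ± 36.9 CPM in cluster 2, against 8.38 ± 10.8 and 2.35 ± 2.54 CPM in clusters 0 and 1. Blnk stood at 29.0 ± 5.47 CPM, against 3.79 ± 2.61 and 1.26 ± 1.55 CPM. These transcripts thus sat mostly in part of the class. Dntt and Il7r were among the genes that most set cluster 2 apart, so this may partly restate how the cluster was drawn. Of the Ly6d UMIs of MPP4 cells, 643 of 671 were in cluster 2. Satb1 was less concentrated, at 224 ± 50.7 CPM in cluster 2 and 175 ± 63.9 CPM in cluster 0, values that overlapped. Among MPP4 cells, 38.3% had a margin under 0.05 between their best and next best class score, so the edge of the class is soft. AML replicate 1 stood apart, with 58.1% of its 117 MPP4 cells near the cut against 32.0% to 39.6% in the other libraries, and 35.0% of them in cluster 2 against 44.8% to 48.5%.

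When every cell was thinned to 2000 UMIs, a Dntt UMI was found in 38.6% of MPP4 cells (2456 of 6370) and 2.24% of HSC cells (69 of 3079). In cluster 7, the erythroid cells that should lack Dntt, the share was 0 of 102. So few cells leave room for a share of up to 2.94%, so they cannot tell whether the HSC share is background. Median depths before thinning were 4067 UMIs in MPP4, 3398 in HSC and 6380 in cluster 7, and unthinned shares of Dntt were 51.4%, 3.84% and 2.94%. Il12a was found in 38.7% of thinned MPP4 cells, 8.96% of HSC cells and 0.98% of cluster 7 cells. Satb1 was found in 27.1%, 5.98% and 3.92% of them. The share with 3 or more of the 10 genes was 15.0 ± 3.68% in MPP4 (n = 5 libraries), 28.0 ± 6.24% in MPP4 cells of cluster 2, 4.38 ± 2.18% in MPP4 cells of clusters 0 and 1, and 0.07 ± 0.10% in HSC.

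Ly6d had a distribution of its own. Of its 2537 UMIs, 46.3% were in the 177 cells of cluster 6 and the 113 cells of cluster 8, which also held 13.7% of Blnk and 12.9% of Ccr9 UMIs but 0.58% of Dntt UMIs. In cluster 6 it stood at 487 ± 94.6 CPM over the 3 libraries with at least 20 cells there, and 54.9% of the thinned cells carried a Ly6d UMI. Dntt was carried by 1.71% of those cells. In cluster 8 few cells carried Ly6d, 1 of 28 in PBS replicate 1, 4 of 23 in PBS replicate 3 and 5 of 52 in AML replicate 3, and single cells held 26 of the 55 and 27 of the 45 UMIs of the latter libraries. Its level there was 236 CPM on average, from 8.49 to 504 CPM, and that of Il7r 191 CPM, from 59.5 to 394 CPM. With clusters 6, 7 and 8 left out, Ly6d in the MPP3 class stood at 16.7 CPM in place of 165 CPM, and Blnk at 3.62 CPM in place of 14.4 CPM, both then lower than in MPP4.

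Whether these genes were found in the same cells was asked within MPP4 cells thinned to 2000 UMIs, by comparing cells with and without a Dntt UMI. Il7r was found in 12.9 ± 5.88% of Dntt-positive cells and 1.60 ± 1.13% of Dntt-negative cells (n = 5 libraries). Ly6d was found in 4.55 ± 2.61% and 0.321 ± 0.371%, Blnk in 5.57 ± 1.64% and 0.725 ± 0.738%, and Il12a in 56.1 ± 7.61% and 27.1 ± 3.85%. The mean log2 odds ratios were 3.43 ± 1.05 for Il7r, 3.28 ± 0.64 for Ly6d, 3.01 ± 1.30 for Blnk, 2.51 ± 0.89 for Rag1, 1.97 ± 0.68 for Rag2, 1.79 ± 0.62 for Il12a, 1.47 ± 0.57 for Notch1 and 0.77 ± 0.16 for Satb1. The size moved with depth: at 1000 UMIs per cell Il7r was at 2.19 and Ccr9 at 0.96, and unthinned Satb1 was at 1.48. Each of these 8 genes was above 0 in 5 of 5 libraries at 2000 UMIs (exact two-sided sign-flip permutation p = 0.0625 for each, the smallest that 5 libraries can give, 0.0703 adjusted over 9 genes). Ccr9, at 1.498 ± 0.55, was above 0 in the 4 libraries that had any Ccr9 UMI (exact p = 0.125, the smallest for 4 libraries). Every gene thus leaned towards Dntt-positive cells, and this design cannot reach 0.05. The share of all genes that lean the same way was not computed, so the lean cannot be called particular to these genes. For Rag1 the value rests largely on the 0.5 added to each count, with 15 cells carrying both genes, 1 against 0 cells in PBS replicate 2 and in AML replicate 1, and 4 against 0 in PBS replicate 1. The added 0.5 also enters the highest library values of Il7r, Ly6d and Blnk, those of PBS replicate 2 (11, 5 and 8 against 0 cells). It enters those of Ly6d and Blnk in AML replicate 1 as well (3 against 0 for each). At 1000 UMIs per cell Rag1 could be compared in 3 libraries and was above 0 in 2.

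Within MPP4 cells of cluster 2 alone the picture split. Il7r (2.31), Ly6d (2.39), Blnk (1.89) and Il12a (1.01) kept a log2 odds ratio above 0 in 5 of 5 libraries, as did Rag1 (1.20) on few cells. Notch1 (0.70) was above 0 in 4 libraries, Rag2 (0.26) in 3, Satb1 (0.15) in 2, and Ccr9 (0.20) in 2 of 4.

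**Figure D2:**
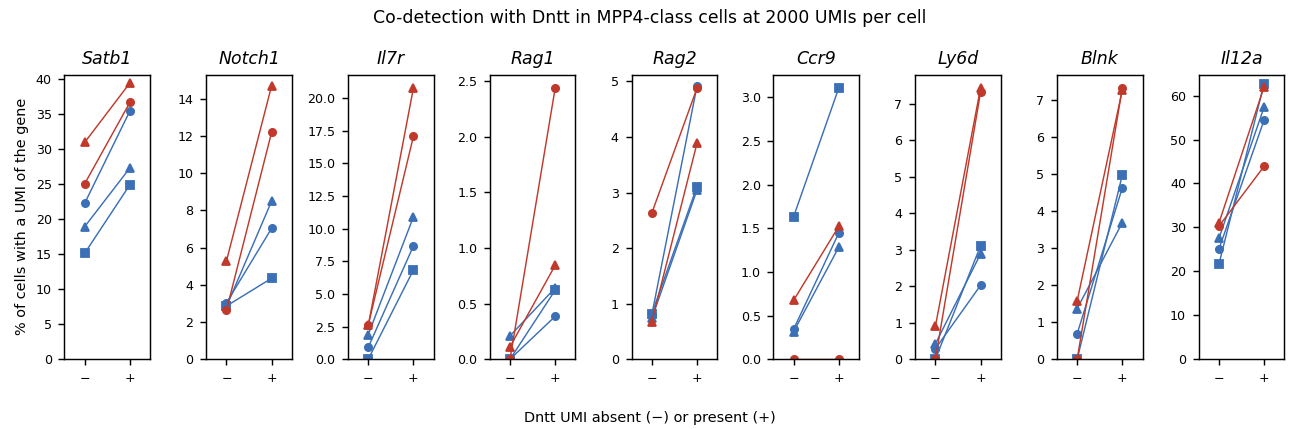
Percent of MPP4 cells, thinned to 2000 UMIs, with a UMI of each gene (y axis), among cells without and with a Dntt UMI (x axis), with 1 line per library (PBS blue, AML red, with circles, squares and triangles for replicates 1, 2 and 3). The lines slope up in every library, save Ccr9 in AML replicate 1, which has 0 UMIs.

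Over the 20 sums of library and class, each gene centred on its library mean, the levels of Dntt, Satb1 and Il12a ran closely together (Pearson r of log2(CPM + 1) 0.93 for Dntt with Satb1 and 0.91 for Dntt with Il12a), as a description over sums that share libraries. Ly6d was closest to Il7r (r = 0.59) and Satb1 (0.45), with lower values for Dntt (0.30), Il12a (0.07) and Notch1 (0.06). Among 7982 other genes with a mean of at least 10 CPM, those most like Dntt were Gm41335 (0.96), Ldlrad4 (0.95) and Rnf141 (0.95). For Satb1 they were Gm41335 (0.97), Flt3 (0.95) and Gm4258 (0.94), for Il12a Flt3 (0.95), Mta3 (0.94) and Fgf13 (0.94), and for Notch1 Ttc13 (0.93), Fgf13 (0.90) and Flt3 (0.88). For Il7r they were Serpinb1a (0.94), Arpp21 (0.94) and Cd69 (0.93), and for Ly6d Spcs2 (0.95), Gm26917 (0.94) and Hdc (0.93). Flt3, the receptor tyrosine kinase used to define MPP4 cells, was thus near 3 of the genes. Rag1, Rag2, Ccr9 and Blnk were under the mean of 10 CPM.

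The comparison of AML with PBS asked whether lymphoid priming differs in healthy progenitors that share the marrow with leukemia. In MPP4 cells, none of the 10 genes passed the test (edgeR's quasi-likelihood test on library sums, adjusted p under 0.05), where 0.0325% of all 12305 genes tested did, and 3 of the 10 had an unadjusted p under 0.05, as did 730 of the 12305. DESeq2 and limma-voom also called none of the 10. Dntt stood at 426, 569 and 408 CPM in PBS replicates 1, 2 and 3 and at 474 and 456 CPM in AML replicates 1 and 3. The AML values lay inside the PBS range, and the log2 fold change was -0.12 ± 0.26 (SE, adjusted p = 0.973). Il12a, with 305, 309 and 357 CPM in PBS and 257 and 375 CPM in AML, likewise overlapped (-0.11 ± 0.26, adjusted p = 0.973).

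Both AML libraries lay above all 3 PBS libraries in MPP4 cells for 5 genes, as they did for 17.3% of all genes tested. Plasmacytoid dendritic cell markers had the same order in these cells, with sums of 592, 526 and 562 CPM in PBS and 679 and 734 CPM in AML. Of the 6 markers 5 were detected in each PBS library, 3 in AML replicate 1 (Siglech, Spib and Klk1 at 0) and 4 in AML replicate 3 (Spib and Klk1 at 0), and their part in the 5 genes' values was not tested. Ly6d stood at 9.71, 27.6 and 12.2 CPM in PBS and 54.2 and 41.7 CPM in AML, on 19 UMIs in AML replicate 1 and 347 in AML replicate 3. Its log2 fold change was 1.41 ± 0.34 with adjusted p = 0.166. Il7r stood at 24.7, 15.5 and 33.5 CPM in PBS and 48.5 and 50.8 CPM in AML, a log2 fold change of 0.91 ± 0.28 (adjusted p = 0.437). The value of AML replicate 1 rests on 17 UMIs and that of AML replicate 3 on 423.

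Notch1 stood at 22.7, 20.02 and 27.4 CPM in PBS and 28.5 and 48.4 CPM in AML (0.79 ± 0.25, adjusted p = 0.544), so that AML replicate 1 was just above PBS replicate 3. Satb1 stood at 174, 126 and 141 CPM in PBS and 208 and 206 CPM in AML (0.40 ± 0.23, adjusted p = 0.883). Rag1, on 48 UMIs, had the same order with 0.94 ± 0.65 (adjusted p = 0.923). Rag2 (0.13 ± 0.32), Ccr9 (0.03 ± 0.48) and Blnk (0.52 ± 0.29) overlapped between the groups, with adjusted p from 0.883 to 0.999.

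**Figure D3:**
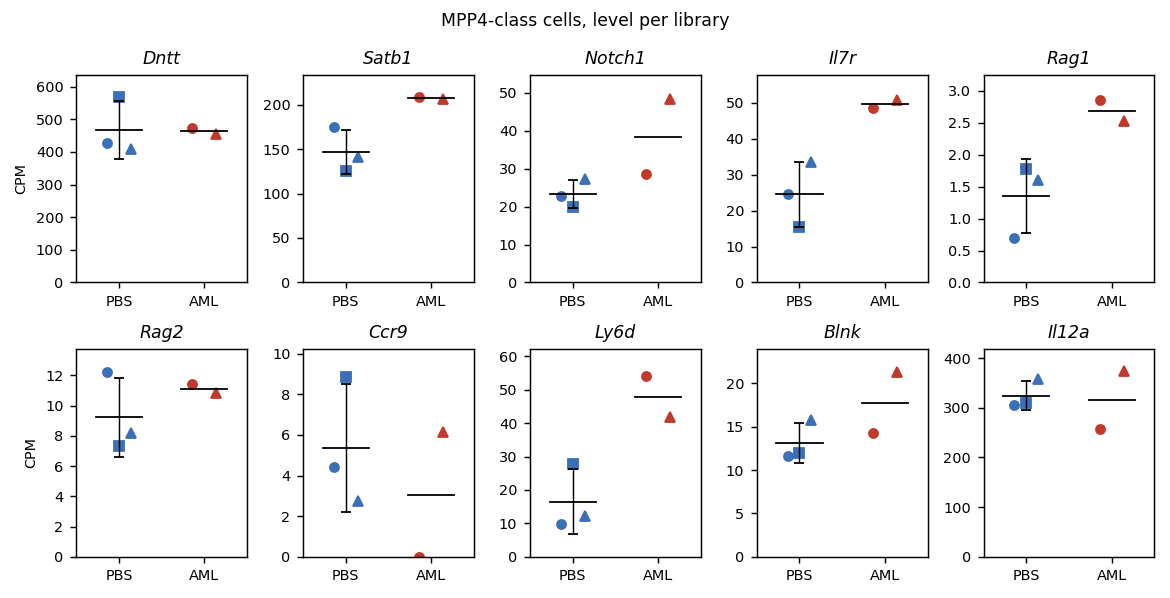
CPM of each gene in MPP4 cells by library (circles, squares and triangles for replicates 1, 2 and 3), with the group mean as a bar and the SD for PBS. Both AML libraries lie above all 3 PBS libraries for Satb1, Notch1, Il7r, Rag1 and Ly6d, and the groups overlap for the other 5.

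For Ly6d the call turned on how the MPP4 sums were made. In MPP4 cells of cluster 2 alone, which hold nearly all its UMIs, Ly6d passed the test with a log2 fold change of 1.40 (adjusted p = 0.0013), where 0.283% of 10942 genes passed. In these cells B cell markers summed to 110, 109 and 108 CPM in PBS and 152 and 120 CPM in AML, with 3 to 5 of the 8 genes detected and Igll1 at 0 in every library. Plasmacytoid dendritic cell markers summed to 640, 590 and 597 CPM in PBS and 718 and 798 CPM in AML, with 3 to 5 of 6 genes detected, Klk1 at 0 in every library, Spib at 0 in both AML libraries and Siglech at 0 in AML replicate 1. The part of either list in the Ly6d result was not tested. Without PBS replicate 2 it also passed, at 1.96 (adjusted p = 0.0015). In that library 65 of the 109 Ly6d UMIs of MPP4 cells came from 1 cell. By cells, a Ly6d UMI was found in 41 of 2842, 8 of 406 and 34 of 1615 MPP4 cells of the PBS libraries, and in 5 of 117 and 77 of 1482 of the AML libraries. Leaving out any other single library gave no call (adjusted p from 0.274 to 0.795). Without AML replicate 1 or 3 (log2 fold changes of 1.32 and 1.63) the 1 AML library left is assumed to vary like the PBS libraries.

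Shares of cells gave the same picture at matched depth. A Ly6d UMI was found in 0.933%, 1.23% and 1.40% of thinned MPP4 cells in PBS and in 2.56% (95% Clopper-Pearson interval 0.532 to 7.31%) and 3.51% (2.63 to 4.58%) in AML. Il7r was found in 3.80%, 2.71% and 5.45% in PBS and 7.69% (3.58 to 14.1%) and 9.85% (8.38 to 11.5%) in AML. The exact two-sided permutation p over the 10 splits of 5 libraries was 0.1 for Ly6d and 0.1 for Il7r, the smallest that 3 against 2 can give. For Dntt the shares were 37.2%, 39.7% and 39.6% in PBS and 35.0% and 39.9% in AML (exact permutation p = 0.7). Both AML shares lay above all PBS shares in MPP4 cells for 6 of the 10 genes (Satb1, Notch1, Il7r, Rag1, Ly6d and Blnk), as for 16.7% of 12998 genes. Over all LSK cells this held for 3 (Satb1, Notch1 and Rag1), against 16.2% of 14691 genes. Unthinned, 2 of the 10 had such an order in MPP4 cells, against 2.54% of 14266 genes, and 0 over all LSK cells, against 1.97% of 16281 genes. Intervals cover counting error only.

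Over all LSK cells none of the 10 passed the test, where 0.160% of 14364 genes did, and 2 had an unadjusted p under 0.05, as did 1511 of the 14364. Satb1 stood at 93.2, 65.7 and 74.6 CPM in PBS and 114 and 110 CPM in AML (log2 fold change 0.50 ± 0.22, adjusted p = 0.455), and Notch1 at 12.7, 11.7 and 16.8 CPM in PBS and 19.5 and 25.1 CPM in AML (0.69 ± 0.25, adjusted p = 0.356). These and Rag1 were above in both AML libraries, as were 16.0% of all genes. T and NK cell markers summed to 202, 167 and 225 CPM in PBS and 292 and 261 CPM in AML, with 4 of the 10 genes detected in AML replicate 1 (Cd3d, Cd3e, Cd3g, Trbc1, Trac and Gzma at 0) and 9 or 10 in the others. Plasmacytoid dendritic cell markers summed to 470, 414 and 431 CPM in PBS and 569 and 595 CPM in AML. Of their 6 genes 3 to 5 were detected, with Siglech, Spib and Klk1 at 0 in AML replicate 1. The part of either list in the Satb1 and Notch1 values was not tested. Dntt stood at 198, 280 and 183 CPM in PBS and 128 and 184 CPM in AML (-0.52 ± 0.28, adjusted p = 0.521), and its groups overlapped by a small margin. MPP4 cells made up 41.6%, 43.5% and 36.7% of the PBS libraries and 16.9% and 37.4% of the AML libraries. When each library's level was taken as the mean of its 4 class levels, the log2 difference of Dntt was -0.12 in place of -0.52 (limma on log2(CPM + 1), adjusted p = 0.844).

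Satb1 also had both AML libraries above all PBS libraries in HSC (35.4, 13.7 and 34.1 CPM against 48.9 and 45.3 CPM), in MPP2 (49.0, 35.2 and 48.9 CPM against 99.1 and 73.3 CPM) and in MPP3 cells (59.3, 32.3 and 51.2 CPM against 89.3 and 69.2 CPM). In no class did it pass the test, with adjusted p from 0.372 in MPP2 to 0.992 in HSC. In HSC, 0 of the 4 genes that could be tested passed, where 0.178% of all genes did, 0 of them and 444 of all 10668 had an unadjusted p under 0.05, and Satb1 and Il12a were above in AML, as were 19.5% of all genes. The HSC sum of AML replicate 1 rests on 23 cells, with 3 Satb1 UMIs. In MPP2, 0 of 8 passed against 0.0399% of all genes, 3 of them and 946 of all 12518 had an unadjusted p under 0.05, and Satb1, Rag2 and Il12a were above in AML, against 16.1%. Neither DESeq2 nor limma-voom called any of the 10 over all LSK cells or in any class. Ly6d in MPP2 overlapped, with 4.41, 1.21 and 10.6 CPM in PBS and 3.27 and 21.9 CPM in AML (1.40 ± 0.54, adjusted p = 0.548).

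In MPP3 cells 0 of 7 genes passed, against 0.0486% of all genes, and 2 of them and 761 of all 10294 had an unadjusted p under 0.05. Notch1 stood at 7.38, 3.40 and 6.31 CPM in PBS and 24.4 and 15.2 CPM in AML (log2 fold change 1.39 ± 0.38, adjusted p = 0.222). It and Satb1 were above in AML, as were 16.8% of all genes. Plasmacytoid dendritic cell markers in MPP3 cells summed to 423, 296 and 389 CPM in PBS and 567 and 529 CPM in AML, with 3 to 5 of the 6 markers detected in each library (Siglech at 0 in PBS replicates 1 and 2 and AML replicate 1), and their part in these values was not tested. Ly6d ran the other way, with 78.5, 523 and 132 CPM in PBS and 27.6 and 64.1 CPM in AML (-2.62 ± 0.67, adjusted p = 0.173), and 5.29% of all genes lay below in AML. Ly6d passed without PBS replicate 1 (adjusted p = 0.0040) and without PBS replicate 3 (0.044), and its value was -1.17 without PBS replicate 2. Cells of cluster 6 made up 6.66%, 29.3% and 9.48% of MPP3 cells in PBS and 3.51% and 6.69% in AML. Plasma cell markers summed to 65227, 206485 and 97857 CPM in PBS MPP3 cells and to 25942 and 40223 CPM in AML MPP3 cells. With clusters 6, 7 and 8 left out, Ly6d stood at 10.6, 0 and 25.1 CPM in PBS and 12.2 and 35.5 CPM in AML, and the log2 fold change turned to 0.93 (adjusted p = 0.680).

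**Figure D4:**
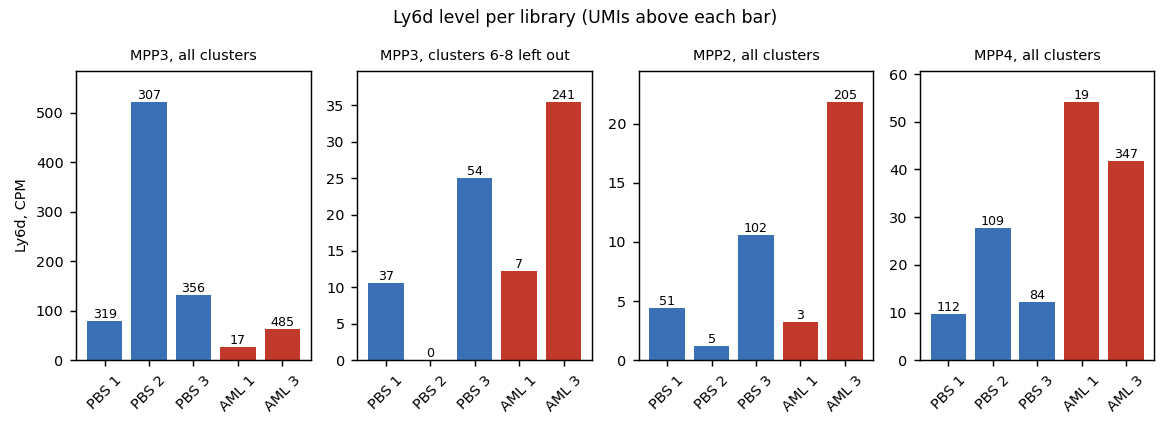
Ly6d CPM (y axis, scale differs by panel) in each library with its UMI count above the bar, in MPP3 cells, in MPP3 cells without clusters 6, 7 and 8, in MPP2 cells and in MPP4 cells. The order of PBS and AML libraries turns over between the first and the last panel.

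The test of whether the AML effect differed between the 4 classes called Ly6d (adjusted p = 1.4e-05), where 0.872% of 12734 genes were called, and none of the other 9 genes (adjusted p from 0.251 for Il7r to 0.926 for Rag1). Relative to HSC, where 16 Ly6d UMIs were counted in all, the Ly6d effect was -2.70 in MPP3, 0.37 in MPP4 and 0.46 in MPP2 on the log2 scale. The call was lost with clusters 6, 7 and 8 left out (adjusted p = 0.974), without AML replicate 3 (adjusted p = 0.574) and in limma-voom with an estimated correlation within libraries (adjusted p = 1.00). Without AML replicate 3 the 1 AML library left held 39 Ly6d UMIs, none of them in HSC, and is assumed to vary like the PBS libraries. The MPP4 effect less the MPP3 effect was then 4.58 on the log2 scale, against 3.08 with all 5 libraries. Dntt passed this test only when PBS replicate 2 was left out (adjusted p = 0.0089).

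Of a list of 51 other lymphoid pathway genes (transcription factors, Notch and cytokine pathway genes, and receptor components), 36 could be tested in MPP4 cells and none passed. Of these, 26 had a positive log2 fold change, against 5880 of all 12305 genes, with a median of 0.26 against -0.02. Both AML libraries lay above all PBS libraries for 14 of the 36 and below for 0, against 2126 and 1061 of the 12305. Over all LSK cells 42 could be tested and none passed, with a median of 0.35 against -0.03. The 10 genes had medians of 0.46 in MPP4 and 0.28 over all LSK cells. Lists like these share libraries and are described, not tested. The lowest unadjusted p-value of the list in MPP4 cells belonged to Ebf1, a B lineage transcription factor, at 12.2 CPM on average in PBS and 27.3 CPM in AML (0.86 ± 0.30, adjusted p = 0.632).

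The authors' phase calls allowed a comparison of cycling (S or G2M) with G1 cells within MPP4. Dntt, Rag2 and Il7r were higher in cycling cells, and Ccr9 was lower. This comparison pairs cells of the same library, and 21.0% of 10609 genes passed as higher and 19.7% as lower, so 3 higher and 1 lower of 9 tested is near the background. By the phase calls alone, S or G2M cells were 24.1% to 33.7% of MPP4 cells in 4 libraries and 71.8% in AML replicate 1, the shallowest, with a median of 2534 UMIs in MPP4.

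Il7r rose by 0.59 ± 0.10 on the log2 scale (adjusted p = 1.0e-07). It stood at 20.2, 13.3 and 30.01 CPM in G1 and 32.1, 19.8 and 40.9 CPM in cycling cells of the PBS libraries, at 43.9 and 60.0 CPM in AML replicate 3, and at 53.4 and 46.7 CPM in AML replicate 1, where 5 and 12 UMIs were counted. The direction was shown by 4 of 5 libraries. Dntt was 0.40 ± 0.04 higher in cycling cells on the same scale (adjusted p = 5.3e-21), again in 4 of 5 libraries. It went from 376, 483 and 393 to 508, 744 and 439 CPM in PBS and from 430 to 491 CPM in AML replicate 3. AML replicate 1 went the other way, from 641 to 412 CPM. DESeq2 gave Dntt 0.28 with adjusted p = 0.211.

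Rag2 was 0.64 ± 0.18 higher in cycling cells (adjusted p = 0.0022), with 0 to 10.4 CPM in G1 and 10.8 to 15.6 CPM in cycling cells, in 5 of 5 libraries, and in S cells alone the value was 0.34 (adjusted p = 0.210). Ccr9 fell by 0.86 ± 0.29 on the log2 scale (adjusted p = 0.0083), lower in the 4 libraries that had any of its UMIs. The Ccr9 call was lost without PBS replicate 2 (adjusted p = 0.096), without PBS replicate 3 (0.064) and with DESeq2 (0.060). In MPP4 cells of cluster 2 alone, Dntt (0.27) and Il7r (0.44) still passed, Rag2 (adjusted p = 0.080) and Ccr9 (0.070) did not, and Satb1 fell by 0.22 (adjusted p = 0.0051). Satb1 in the whole class was at -0.10 ± 0.05 (adjusted p = 0.146), with lower values in 5 of 5 libraries, and Il12a at 0.00 ± 0.04 (adjusted p = 0.981). Of the 34 pathway genes tested, 3 were higher and 12 lower in cycling cells, against the 21.0% and 19.7% of all genes.

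**Figure D5:**
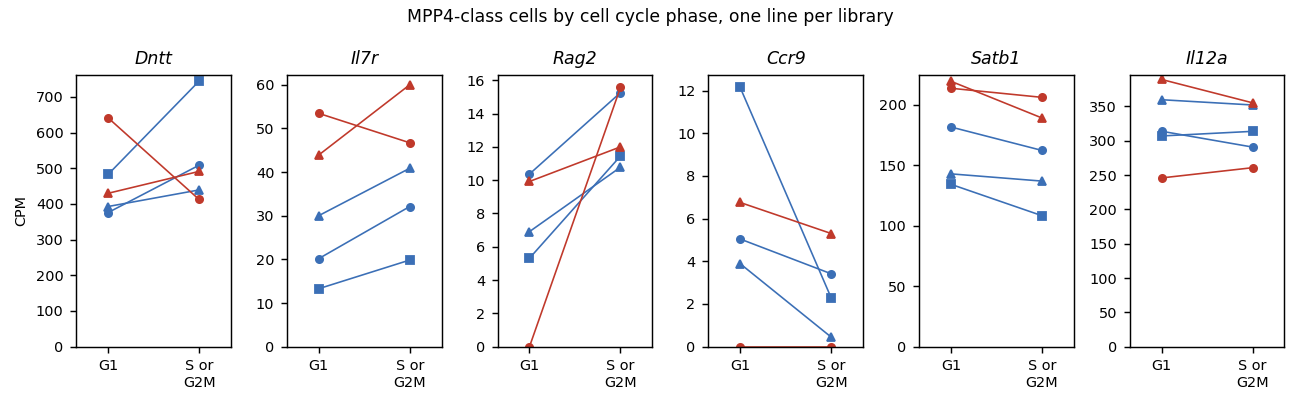
CPM in G1 and in S or G2M cells of the MPP4 class (x axis), with 1 line per library (PBS blue, AML red) and circles, squares and triangles for replicates 1, 2 and 3. Dntt and Il7r lines slope up in 4 of 5 libraries and Rag2 lines in 5 of 5, while Il12a lines are close to level.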

How the data were processed

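Droplet libraries used the Chromium GEM V3 kit of 10x Genomics, per the labels, and the submitters' processing notes name Cell Ranger 7.0.1, Seurat 4.3.0, R 4.2.2 and the build GRCm38 (mm10). For aligner settings, cell filters and doublets, the sources used here give no detail. The authors deposited unnormalized UMI counts for every gene in each barcode, and a cell table with each cell's library, UMI count (equal to the matrix sum in all 16822 cells), phase, cluster, class and, per class, a module score. The deposited score is without unit, and a further 16 table columns were not used.

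Counts were summed per library and class (at least 20 cells), and CPM was computed from plain totals. Sums were tested in edgeR 4.0.16 (R 4.3.3) with TMM normalization, filterByExpr and its quasi-likelihood F test, p-values being adjusted over all genes tested (Benjamini-Hochberg) and called under 0.05. A log2 fold change above 0 is higher in the first group named. DESeq2 1.42.0 and limma-voom (limma 3.58.1) were alternatives. Phase and class-by-treatment fits had 1 term per library. The edgeR step was tested on simulated data. Shares were compared after thinning each cell to 2000 UMIs (16617 of 16822 cells), with exact permutation over libraries. The odds ratio had 0.5 added to each count, and a library with no UMI of the gene was left out. AML replicate 2 has 17055 barcodes and no cell in the table, so that the planned 3 AML libraries were 2.

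The genes and lists were chosen with earlier results of these data known. Genes named beyond the 10 are the 3 most like each gene with a mean of at least 10 CPM, and the pathway gene of lowest p in MPP4 cells, chosen after its values were seen. The same holds for the restrictions to cluster 2 and to clusters 0 and 1.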

Additional observations from a re-analysis of the deposited data

Results flagged for a closer look

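The AML effect on Ly6d differed between the 4 classes in the test of the difference itself (adjusted p = 1.4e-05, edgeR's quasi-likelihood test), with lower AML values in MPP3 and higher AML values in MPP4 cells. MPP3 holds nearly all cells of cluster 6, and the call was lost with clusters 6, 7 and 8 left out (adjusted p = 0.974), without AML replicate 3 (0.574) and in limma-voom with an estimated correlation within libraries (1.00). Without AML replicate 3 the AML arm is 1 library with 39 Ly6d UMIs, assumed to vary like the PBS libraries, and the MPP4 effect less the MPP3 effect was 4.58 on the log2 scale, against 3.08 with all 5 libraries.

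AML replicate 2, which holds no cell of the table, carries signal of these genes in its barcodes. Taking barcodes with 1000 or more genes and no more than 10% of UMIs from mitochondrial genes left 106 (306059 UMIs), in which Notch1 stood at 32.7 CPM on 10 UMIs, Il7r at 19.6 CPM on 6 UMIs and Blnk at 13.1 CPM on 4 UMIs. All of these were above the 3 PBS libraries taken through the same filter, whose highest values were 15.1, 14.3 and 6.75 CPM. Of 16816 genes with at least 10 UMIs over the 6 libraries, 32.8% were above all 3 PBS libraries in AML replicate 2 and 48.8% below. Satb1 (78.4 CPM on 24 UMIs) lay inside the PBS range of 58.6 to 87.4 CPM, unlike in AML replicates 1 and 3 (128 and 107 CPM). Dntt (111 CPM on 34 UMIs) and Il12a (101 CPM on 31 UMIs) were below the PBS libraries, and Rag1, Rag2, Ccr9 and Ly6d had 0 UMIs. These values have no test of their own.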

How the results depend on the processing

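Values are log2 fold changes unless said otherwise. Direction turned, in AML against PBS over all LSK cells, for Ly6d (-0.0058) under an own filter on the barcodes of 6 libraries and, with equal class composition, for Ly6d (-0.91), Blnk (-0.17) and Il12a (0.17). In HSC it turned for Notch1 with limma-voom (0.35) and thinned cells (0.28) and for Il12a with thinned cells (-0.040). With the replicate block it turned for Il7r (-0.12) and Blnk (-0.32) in MPP2, Il12a (-0.198) in MPP3 and Dntt (0.064) in MPP4. In MPP3 it turned without clusters 6, 7 and 8 for Ly6d (0.93) and Blnk (0.0089), and with thinned cells for Il12a (-0.25). In MPP4 it turned for Ccr9 with DESeq2 (-0.29) and thinned cells (-0.27), for Rag2 in cluster 2 only (-0.089) and for Il12a in clusters 0 and 1 only (0.26). In cycling against G1 cells it turned with DESeq2 for Ly6d (-0.46) and Il12a (-0.0036), for Il12a also with thinned cells (-0.038), G2M alone (-0.23, adjusted p = 0.035) and cluster 2 only (-0.10), and for Notch1 with S alone (-0.072) and cluster 2 only (-0.12). None of these passed the test in the reported fit.

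Leaving out 1 library at a time, values ranged over all LSK cells from -8.33 to 0.19 for Ccr9, -0.39 to 0.14 for Il12a, -0.033 to 1.01 for Il7r, -0.41 to 0.61 for Ly6d and -0.15 to 0.41 for Blnk. They ranged from -0.40 to 0.50 for Notch1 in HSC, and in MPP2 from -0.48 to 0.84 for Il7r, -0.91 to 2.35 for Ly6d and -0.17 to 0.43 for Blnk. In MPP3 they ranged from -2.16 to 1.34 for Il7r and -0.190 to 0.56 for Il12a. In MPP4 they ranged from -0.49 to 0.12 for Il12a, -7.87 to 0.51 for Ccr9, -0.025 to 0.74 for Blnk and -0.22 to 0.063 for Dntt, and in cycling against G1 cells from -0.065 to 0.29 for Ly6d and -0.048 to 0.045 for Il12a.

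The number of the 10 genes called in AML against PBS was 0 in the reported fits. It was 1, Ly6d each time, with no filter on low counts in MPP2, MPP3 and MPP4, with library size only in MPP3, and in cluster 2 only in MPP4. It was 0 to 1 leaving out 1 library in MPP3 and in MPP4. The replicate number as a block also gave 1 in MPP4 (Ly6d, 1.92, adjusted p = 1.1e-05). Deviations of same-numbered libraries from their group means correlated at -0.057 and -0.055. The deviations of the 2 AML libraries mirror each other by construction, so this cannot settle whether the numbers pair the samples. No replicate block could be fitted beside 1 term per library. The class difference called 1 gene as reported, 0 to 2 leaving out 1 library, 0 with limma-voom and the library as a random effect, and 0 without clusters 6, 7 and 8. Cycling against G1 called 4 as reported and 2 with DESeq2, with thinned cells and with S alone. Genes whose shares did not overlap numbered 3 over all LSK cells (0 unthinned, 3 to 9 leaving out 1 library) and 6 in MPP4 (2 unthinned, 3 at 2 or more UMIs, 6 to 10 leaving out 1 library). Leaving out a library can only add to such counts. The share over all genes was not computed for those fits or at 2 or more UMIs, so these counts cannot be read as a result about the 10 genes. Co-detection was above 0 in every library with a UMI of the gene for 9 genes, for 8 at 1000 UMIs per cell (not Rag1), and in cluster 2 only for 5. For co-detection no share over all genes was computed in any setting. MPP4 was the highest class for 9 genes, and for 8 by per-cell means or in PBS alone. Calls over all genes ranged from 2 to 419 over all LSK cells (23 as reported), 0 to 29 in HSC (19), 0 to 156 in MPP2 (5), 2 to 166 in MPP3 (5), 0 to 75 in MPP4 (4), 1 to 233 for the class difference (111) and 2000 to 4487 for the phase (4320). Where the text gives no value that moves with a change, the cause was not tested. AML replicate 1 limits precision, with 1945659 UMIs.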
